A study of Mus musculus with 6 samples.

Results

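Genes of the interferon response and of antigen presentation were examined in the inner enamel epithelium (IEE) of the mandibular first molar (MM1) of mouse embryos at E18.5. The set was a named list of 41 genes, 25 of them interferon-induced and 16 of them genes of the major histocompatibility complex (MHC) or of antigen presentation, and members were found in the deposited table by gene symbol alone. The table held 39 of the 41 among 18152 genes, namely 23 interferon-induced genes and all 16 antigen presentation genes. Mx1 and Mx2 were not analysed here.

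RNA-seq was carried out on 3 libraries labelled control, from Kdf1 fl/fl embryos, and 3 libraries labelled cKO, from K14-Cre;Kdf1 fl/fl embryos. Both groups carry the floxed Kdf1 allele on a C57BL/6J background, and the controls, whose treatment label reads WT, have no Cre. The K14 promoter drives Cre in epithelial cells, so mesenchyme, vessels and leukocytes that share the tissue are not targets of the deletion. The IEE was cut from sections by laser capture microdissection. The sample titles read bio rep, but the sources used here do not say how many embryos stood behind a library. The p values therefore set a group difference against the spread between these libraries, which may be partly technical.

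Interferons are secreted proteins whose receptors activate the kinases JAK1, JAK2 and TYK2 and, through them, STAT and IRF transcription factors. Type I interferon acts through STAT2 and IRF9, which bind the interferon-stimulated response element in the promoters of antiviral genes, while the response to interferon-γ runs in part through IRF1. MHC class I displays peptides that the proteasome has cut and that the TAP transporter has carried into the endoplasmic reticulum, on heavy chains held by the light chain β2-microglobulin. MHC class II displays peptides from the endosome and is largely restricted to macrophages, dendritic cells and B cells, with the IEE being an epithelium that later forms enamel-secreting ameloblasts.

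Library totals ranged from 14713918 to 16675133 estimated counts, so that 3 counts, the limit that a count of 0 allows, corresponded to 0.182 to 0.198 CPM (counts scaled to an equal library total with TMM factors). Kdf1 was at 52.5, 44.3 and 52.7 CPM in replicates 1, 2 and 3 of the control group and at 0, 0.0629 and 0 CPM in the cKO group, so the targeted gene separated the groups as labelled. The same order of replicates is used for all values given below. Summed markers of dental epithelium were lower in the cKO group (5721 to 9768 CPM against 12694 to 28327 CPM). These 12 markers include the enamel matrix genes Ambn, Amelx and Enam, whose part in the lower sum was not tested. Over the 12, the median log2 fold change was -0.79 and the mean -1.55. Markers of dental papilla, at 3433 to 16755 CPM in the controls and 9283 to 9433 CPM in the cKO group, were present in every library although the label names epithelium. The papilla sum was led by Col1a1. Over the 9 papilla markers tested the median log2 fold change was 1.49, or 1.33 without replicate 1 of the cKO group. Of the 9, 7 were above 0, beside 49.5% of all genes tested. Without overlap between groups, 5 were higher and 1 was lower, where 14.5% of all genes were higher. The part of papilla in the values below was not tested. Markers of macrophages and monocytes summed to 53.9, 130.2 and 64.1 CPM in the control libraries and to 341, 173 and 108 CPM in the cKO libraries. Replicate 1 of the cKO group stood apart by the highest leukocyte, macrophage and endothelial sums.

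Interferon-induced genes were on average higher in the cKO group, but none passed the criterion. Their median log2 fold change was 1.07, against -0.0043 over all 14131 genes tested, and 22 of the 23 lay above 0, where 49.5% of all genes did. A log2 fold change of at least 1 was reached by 13 of the 23, compared with 9.23% of all genes tested. Ifit3 had the largest log2 fold change of the 23, at 3.12 ± 0.80 (SE), followed by Gbp2, Ifit1 and Ifit2. The lone member below 0 was Isg20, an RNA exonuclease, at -0.45 ± 0.43.

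The criterion asked for a log2 fold change of 1 or more in either direction and an adjusted p of 0.05 or less in the quasi-likelihood test of edgeR, adjusted by the Benjamini-Hochberg method over all genes tested. It was passed by 0 of the 23, against 0.432% of all genes in either direction. At an unadjusted p of at most 0.05, 8 of the 23 were higher and 0 lower, beside 13% of all genes higher and 11.6% lower. DESeq2 placed 2 of the 23 past the criterion (Ifit2 and Ifit3), where it placed 5.05% of all genes there in the same direction, and the edgeR fit with the replicate number as a block placed the same 2 there, beside 4.16% of all genes. The groups did not overlap in CPM for 3 of the 23 (Irf1, Ifit3 and Ifi44), close to the 14.5% of all genes whose cKO values all lay above the controls.

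Replicate 1 of the cKO group held the highest value of its group for 22 of the 23 genes, which it did for 31.9% of all genes, and the median log2 fold change without it was 0.30. In the control group, replicate 2 held the highest value for 19 of the 23, beside 26.2% of all genes. The same libraries were highest in their groups for macrophage and monocyte markers, for 14 of 14 and 13 of 14 genes, respectively. Of those 14 markers, 13 were on average higher in the cKO group, and none was at 0 in every library. Pan-leukocyte markers summed to 11.4 to 31.1 CPM in the controls and 23.8 to 94.5 CPM in the cKO group. The pattern was not limited to macrophage markers. Replicate 1 of the cKO group and replicate 2 of the controls were highest for 5 and 5 of 5 pan-leukocyte markers. For tested endothelial markers these were 9 and 6 of 9, for papilla markers 5 and 8 of 9, and for neutrophil markers 6 and 1 of 6. For markers of dental epithelium they were 0 and 0 of 12. The part of leukocytes in the interferon-induced values was not tested, and in bulk tissue more cells of a type and more RNA per cell cannot be told apart.

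**Figure D1:**
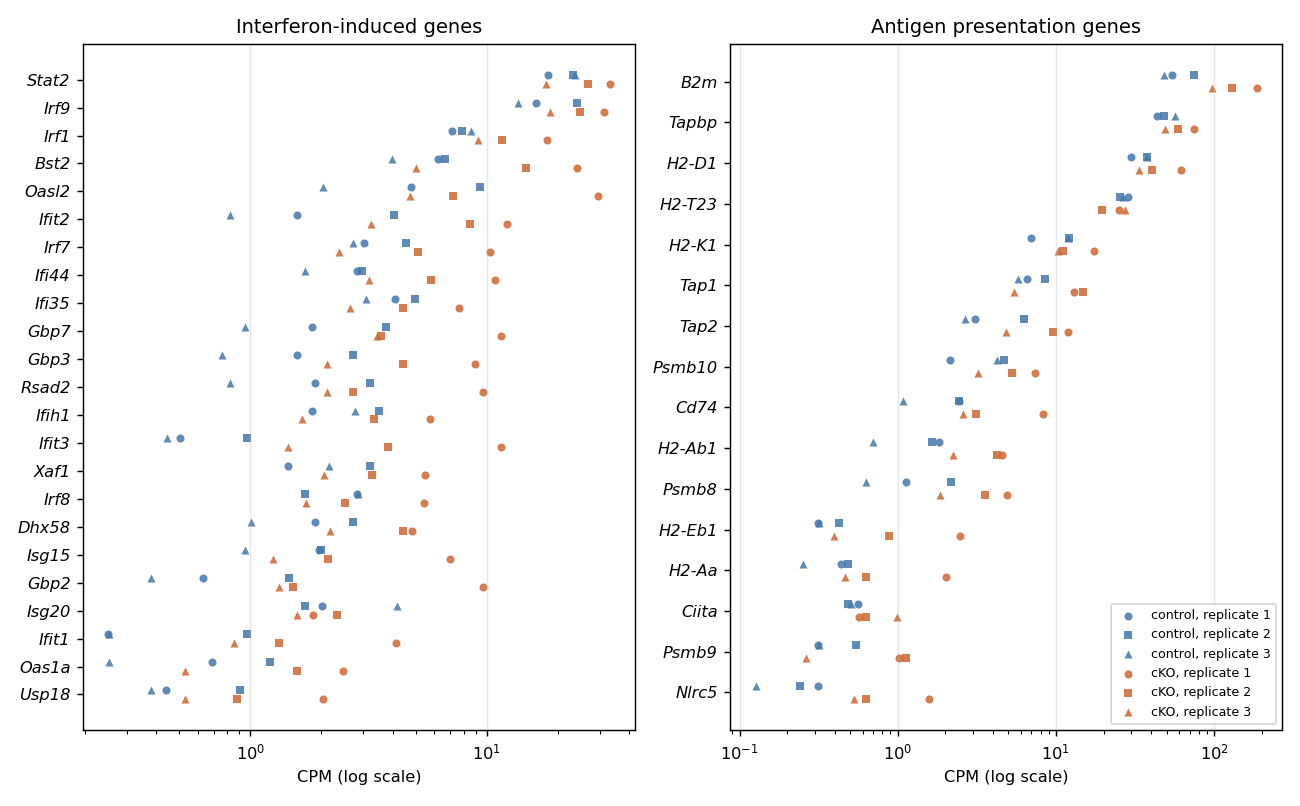
Level of each member in every library, in CPM on a logarithmic axis, with 23 interferon-induced genes on the left and 16 antigen presentation genes on the right, ordered by mean. Circles, squares and triangles are replicates 1, 2 and 3 of control (blue) and cKO (orange), and the orange circle lies farthest right for 22 of the 23 interferon-induced genes.

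Among the transcription factors of the response, Irf9 and Stat2, which act together in the type I response, had the highest levels on the TPM scale and log2 fold changes below 1. Stat2 (gene identifier 20847 in the deposited table) was at 18.2, 23.2 and 23.6 CPM in the control libraries and at 33.3, 26.7 and 17.7 CPM in the cKO libraries. These groups overlapped, with replicate 3 of the cKO group below every control, and the log2 fold change was 0.26 ± 0.25 (edgeR adjusted p = 0.551), or 0.05 without replicate 1 of the cKO group. Irf9 (gene 16391), the DNA-binding partner of Stat2, was at 16.2, 23.99 and 13.6 CPM in the controls and 31.4, 24.8 and 18.52 CPM in the other group. The highest control value of Irf9 exceeded the lowest cKO value, and the difference did not pass the test (log2 fold change 0.47 ± 0.28, adjusted p = 0.328, and a fold change of 0.29 on the log2 scale without that replicate).

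Irf1 (gene 16362), which carries the response to interferon-γ and drives MHC class I genes, was measured at 7.16, 7.87 and 8.59 CPM in the control group. In the cKO group it was at 17.9, 11.6 and 9.23 CPM. All values of this group lay above the controls, which were close to each other, and the log2 fold change was 0.71 ± 0.28 (unadjusted p = 0.0347, adjusted p = 0.171). Irf7, which amplifies type I interferon production, and Irf8, a factor of myeloid cells, overlapped between groups with log2 fold changes of 0.79 ± 0.53 and 0.39 ± 0.48. Without replicate 1 of the cKO group, the values were 0.42 for Irf1, 0.14 for Irf7 and -0.19 for Irf8.

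The Ifit genes encode antiviral proteins that act on foreign RNA, and 3 of the 4 largest log2 fold changes among the interferon-induced genes were theirs. Ifit3 (gene 15959) was at 0.502, 0.969 and 0.442 CPM in the control libraries and at 11.5, 3.84 and 1.45 CPM in the cKO libraries. The groups did not overlap, although the cKO values were spread over a wide range from replicate to replicate. The control values of Ifit3 rested on 7 to 16 counts. The adjusted p was 0.0874 in edgeR, 0.0394 when blocked by replicate number and 0.00161 in DESeq2, and it lay between 0.00161 and 0.316 over all alternatives. The log2 fold change without replicate 1 of the cKO group was 2.05.

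Ifit2 (gene 15958), which also binds RNA, was at 1.57, 4.06 and 0.821 CPM in the controls and at 12.2, 8.50 and 3.23 CPM in the cKO group. The groups overlapped through replicate 2 of the controls and replicate 3 of the other group. Within each number the cKO library was the higher, but the labels do not establish the numbers as pairs. The log2 fold change of Ifit2 was 1.89 ± 0.68, with an adjusted p of 0.152 in edgeR, 0.0362 when blocked by replicate number and 0.0403 in DESeq2 (range over all alternatives 0.0362 to 0.395). Ifit1 (gene 15957), which binds RNA caps that lack the host's methylation, was at 0.251, 0.969 and 0.253 CPM against 4.11, 1.32 and 0.857 CPM. It rested on 4 to 16 counts in the controls and 13 to 65 counts in the cKO libraries, and the overlapping groups differed by a log2 fold change of 2.07 ± 0.79 (adjusted p = 0.168). Without replicate 1 of the cKO group these came to 1.45 for Ifit2 and 1.14 for Ifit1. Ifit3 has a near-identical copy, Ifit3b, which was listed with 0 to 27 counts, and the authors' assignment could split reads between them.

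Ifi44 (gene 99899), an interferon-induced cytoplasmic protein, was at 2.83, 2.97 and 1.71 CPM in the control group and at 10.9, 5.79 and 3.16 CPM in the cKO group. No value of the latter fell within the control range, replicate 3 lying just above it, and the log2 fold change was 1.40 ± 0.49 (adjusted p = 0.144), or 0.85 without replicate 1. For Ifi35 the groups overlapped and the log2 fold change of 0.28 ± 0.42 became -0.19 without replicate 1 of the cKO group.

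Bst2 (gene 69550), which encodes tetherin, a membrane protein that holds budding virus at the cell surface, had the highest level per transcript length of the interferon-induced genes, with a mean of 33.8 TPM (reads scaled by transcript length to an equal library total) over the 6 libraries. The next were Irf9 at 17.5 TPM and Stat2 at 9.98 TPM, and Ifit1 was the lowest at 1.00 TPM. On the CPM scale, Bst2 was at 6.22, 6.66 and 3.98 in the controls and at 24.05, 14.6 and 5.01 in the cKO group. Replicate 3 of the latter lay inside the control range and the other two replicates above it, with a log2 fold change of 1.37 ± 0.53 (adjusted p = 0.173). When that replicate was left out, Bst2, Ifit3 and B2m passed the criterion with adjusted p values of 0.0491, 0.0476 and 0.0476, in a fit that placed 2.29% of all genes past it in the same direction. Without replicate 1 of the cKO group instead, the log2 fold change of Bst2 was 0.82, and its adjusted p ranged from 0.0491 to 0.443 over all alternatives.

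Guanylate-binding proteins are GTPases that attack the vacuoles and membranes of intracellular pathogens and respond chiefly to interferon-γ. Gbp2 (gene 14469) was at 0.628, 1.45 and 0.379 CPM in the control libraries and at 9.62, 1.51 and 1.32 CPM in the cKO libraries. One library, replicate 1 of the cKO group, set this difference, and its log2 fold change of 2.32 ± 0.92 was 0.79 without it. The control values of Gbp2 rested on 6 to 24 counts. Gbp3 (gene 55932) was at 1.57, 2.73 and 0.758 CPM against 8.92, 4.40 and 2.11 CPM. For Gbp3 the groups overlapped through replicate 3 of the cKO group (log2 fold change 1.61 ± 0.64, adjusted p = 0.181), and the value without replicate 1 was 0.96. Gbp7 had a log2 fold change of 1.501 ± 0.66 (adjusted p = 0.215), or 0.70 without replicate 1, and reads may be shared between these paralogous genes.

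The remaining interferon-induced genes, Isg20 among them, overlapped between groups and had unadjusted p values above 0.05. The oligoadenylate synthetase genes Oas1a and Oasl2, whose family triggers RNA decay, and the radical enzyme Rsad2 (viperin) had log2 fold changes of 1.07, 1.37 and 1.29, and without replicate 1 of the cKO group these were 0.55, 0.16 and 0.30. Isg15, a ubiquitin-like modifier, and Usp18, the protease that removes it, were at 1.09 ± 0.67 and 0.98 ± 0.62. Among RNA sensors, Dhx58 (LGP2) was at 1.02 ± 0.47 and Ifih1 (MDA5) at 0.40 ± 0.49, while Xaf1, a pro-apoptotic interferon target, was at 0.67 ± 0.47. Without that replicate, Isg15, Usp18 and Ifih1 came to 0.07, 0.30 and -0.11, and Dhx58 and Xaf1 to 0.82 and 0.24.

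**Figure D2:**
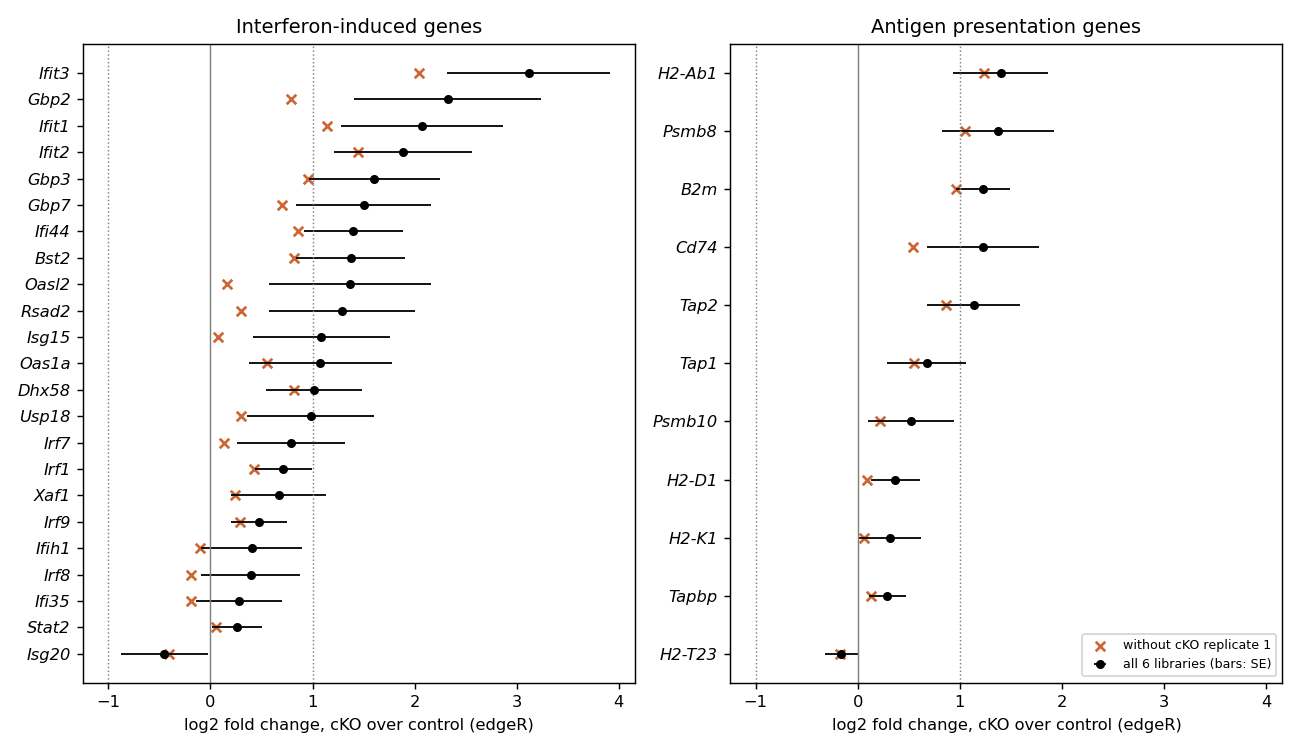
Log2 fold change of cKO over control for the 34 members that were tested, with points for the fit on all 6 libraries, bars for its SE and crosses for the fit without replicate 1 of the cKO group. Dotted lines mark a log2 fold change of 1 in either direction, and all crosses but that of Isg20 lie left of their points, with Ifih1, Irf8 and Ifi35 crossing 0.

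The promoters of the members were read from RefSeq for the interferon-stimulated response element, because this is the sequence through which the type I response reaches these genes. The window was the 250 bases before each transcription start in a RefSeq table of build GRCm38.p6, which need not be the build behind the deposited counts, and the motif was searched on both strands as the letters GAAA, then any 2 bases, then GAAA. Of 21 interferon-induced genes with an entry, 10 held a match (Bst2, Gbp2, Gbp3, Gbp7, Ifit1, Ifit3, Isg15, Oas1a, Rsad2 and Stat2), compared with 3.46% of all 27025 genes in that table and 2.98% of its 32851 windows. Of 11 antigen presentation genes with an entry, B2m and H2-T23 held one. The interferon-γ motif TTCNNNGAA was found in 7 of the 21 and 1 of the 11, beside 8.13% of all genes in the table, and it overlapped the other motif in the window of Bst2. Matches are descriptions of letters in these windows and were not tested for binding.

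The stretches below are shown because they carry the motif, in capitals, in the members with both a match and an unadjusted p of 0.05 or less. Stat2 and H2-T23 are given as members with a match whose difference was small, and overlapping matches run together. Each is written 5′ to 3′ on the strand of its gene, with its place in GRCm38.p6.
Ifit3 (chr19:34583353-34583436, plus strand): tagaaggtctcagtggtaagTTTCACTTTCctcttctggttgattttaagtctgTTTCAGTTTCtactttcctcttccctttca
Ifit1 (chr19:34640765-34640833, plus strand): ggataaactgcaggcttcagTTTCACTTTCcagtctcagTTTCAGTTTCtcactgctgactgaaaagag
Bst2 (chr8:71537567-71537622, minus strand): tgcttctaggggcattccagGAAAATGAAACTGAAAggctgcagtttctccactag
Gbp2 (chr3:142620584-142620633, plus strand): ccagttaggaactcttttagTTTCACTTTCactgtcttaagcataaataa
Gbp3 (chr3:142559979-142560034, plus strand): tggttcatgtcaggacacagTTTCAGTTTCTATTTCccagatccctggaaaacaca
B2m (chr2:122147528-122147577, plus strand): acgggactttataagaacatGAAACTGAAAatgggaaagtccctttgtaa
Stat2 (chr10:128270256-128270305, plus strand): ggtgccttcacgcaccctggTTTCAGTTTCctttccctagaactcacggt
H2-T23 (chr17:36032796-36032845, minus strand): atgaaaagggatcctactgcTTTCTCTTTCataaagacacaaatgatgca

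Ifit3, Ifit1, Bst2 and Gbp3 each held 2 matches and the others 1. The matches of Gbp2 and Gbp3 ended within 60 bases of the transcription start, at 50 and 30 bases before it, whereas that of Stat2 lay 213 to 222 bases before it. A match was thus present both in members with large differences, such as Ifit3, and in H2-T23, whose log2 fold change was -0.16. No match was found in the windows of Ifit2, one of which held the interferon-γ motif.

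Genes of antigen presentation were also on average higher in the cKO group. Of the 16 members, 11 passed the filter on low counts, and 10 of these had a log2 fold change above 0, with a median of 0.68, beside 49.5% of all genes above 0. In the fit without that filter the median over all 16 was 1.07, beside 0.0246 over all genes. The interferon-induced genes were at 1.07 in that fit as well. An unadjusted p of 0.05 or less was found for B2m, the transporter subunit Tap2, the immunoproteasome subunit Psmb8 and the class II chain H2-Ab1, all higher, where 13% of all genes were. In edgeR 0 of the 11 passed the criterion, DESeq2 placed 1 there (B2m), beside 5.05% of all genes, and the replicate block 2 (B2m and H2-Ab1), beside 4.16%. Every cKO value lay above the controls for 3 of the 11, namely B2m, Cd74 and H2-Ab1, beside 14.5% of all genes. Replicate 1 of the cKO group was the highest of its group for 9 of the 11, beside 31.9% of all genes, and the median without it was 0.54.

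B2m (gene 12010), the light chain common to all class I molecules, was the most abundant member at a mean of 299 TPM. It was at 54.3, 74.3 and 48.3 CPM in the control libraries and at 188, 129.8 and 97.6 CPM in the cKO libraries. Every cKO library exceeded every control, the log2 fold change was 1.23 ± 0.27, and it was 0.96 without replicate 1. The adjusted p was 0.0714 in edgeR, 0.0221 when blocked by replicate number and 0.000729 in DESeq2, and lay between 0.000729 and 0.292 over all alternatives.

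The heavy chains that pair with B2m differed less. H2-D1 (gene 14964), a classical heavy chain, was at 29.6, 37.4 and 37.6 CPM in the controls and at 61.6, 40.2 and 33.6 CPM in the cKO group. Replicate 3 of the latter lay among the controls, and the log2 fold change was 0.37 ± 0.24 (adjusted p = 0.371). H2-K1, the other classical heavy chain, had a log2 fold change of 0.32 ± 0.30 (adjusted p = 0.548) with overlapping groups. Without replicate 1 of the cKO group the values were 0.10 for H2-D1 and 0.06 for H2-K1. H2-T23 (gene 15040), which encodes the nonclassical chain Qa-1, was at 28.7, 25.3 and 26.5 CPM in the controls and 24.996, 19.6 and 27.4 CPM in the other group. It was the one tested antigen presentation gene with a mean below the controls, at a log2 fold change of -0.16 ± 0.16 (adjusted p = 0.580). H2 genes are close paralogs, so reads may be split between them.

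The ratio of B2m to the sum of H2-K1 and H2-D1, taken within each library on the TPM scale, separated the groups. It was 3.66, 3.73 and 2.39 in the control libraries and 5.87, 6.29 and 5.46 in the cKO libraries. The groups did not overlap, and the mean log2 difference was 0.88 with all libraries and 0.87 without replicate 1 of the cKO group. A two-sided exact permutation test gave p = 0.1, the smallest value that 3 against 3 allows, and 0.333 after adjustment over the 5 ratios computed, all chosen after the values of the genes had been seen. The ratio shows unequal change of the chains within a library and not which of them was constant.

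Peptide loading genes had intermediate values. Tap2 (gene 21355), a subunit of the peptide transporter, was at 3.08, 6.24 and 2.65 CPM against 11.9, 9.63 and 4.81 CPM, with overlap through replicate 2 of the controls and replicate 3 of the cKO group. Its log2 fold change was 1.14 ± 0.45 (adjusted p = 0.181). Tap1, the partner subunit, was at 0.68 ± 0.39, and Tapbp (tapasin), which bridges the transporter to class I, was at 0.29 ± 0.18, and both overlapped between groups. Tap2, Tap1 and Tapbp were at 0.86, 0.56 and 0.13 without replicate 1 of the cKO group.

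The immunoproteasome replaces the catalytic subunits of the constitutive proteasome under interferon-γ. Psmb8 (gene 16913) was at 1.13, 2.18 and 0.632 CPM in the control group and at 4.87, 3.59 and 1.85 CPM in the cKO group. The groups overlapped, since replicate 2 of the controls exceeded replicate 3 of the other group, and the log2 fold change was 1.38 ± 0.55 (adjusted p = 0.181). Psmb10 had a log2 fold change of 0.52 ± 0.42, and the values without replicate 1 of the cKO group were 1.05 for Psmb8 and 0.22 for Psmb10. Psmb9, with 4 to 18 counts per library, was too low to be tested. On the TPM scale the 3 immunoproteasome subunits together amounted to 0.784, 1.78 and 1.06 percent of the constitutive subunits Psmb5, Psmb6 and Psmb7 in the controls and to 4.04, 2.47 and 1.28 percent in the cKO group. These groups overlapped, with a mean log2 difference of 1.04, or 0.64 without replicate 1 of the cKO group (two-sided exact permutation p = 0.2, and 0.333 after adjustment over the 5 ratios). The constitutive form was far in excess in every library.

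**Figure D3:**
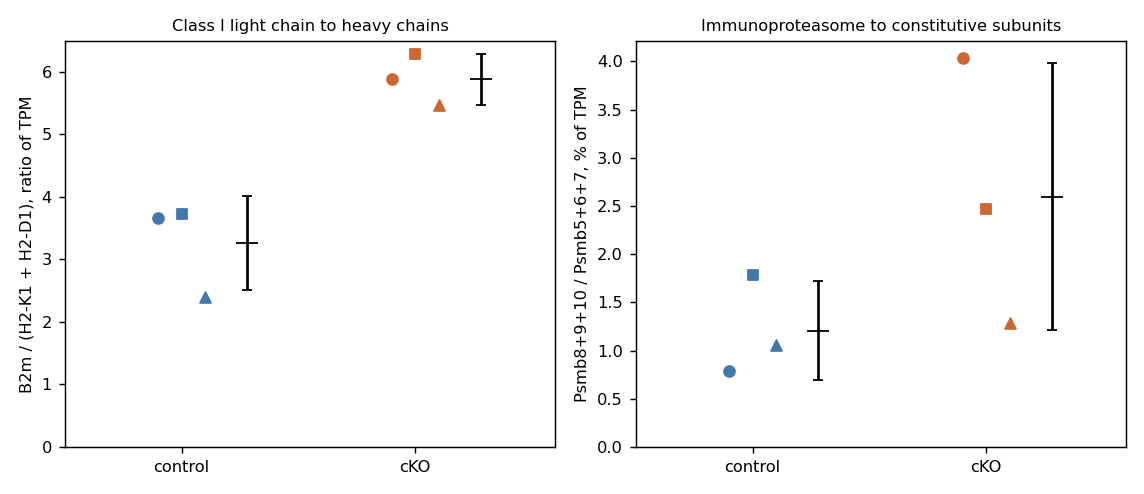
Ratios of TPM values within each library for control (blue) and cKO (orange), with circles, squares and triangles for replicates 1, 2 and 3 and black bars for the mean ± SD. The ratio of B2m to H2-K1 and H2-D1 (left) does not overlap between groups, and the immunoproteasome subunits as a percentage of the constitutive subunits (right) do.

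The class II genes were low in all libraries. H2-Ab1 (gene 14961), a class II β chain, was at 1.82, 1.64 and 0.695 CPM in the control group and at 4.56, 4.22 and 2.24 CPM in the cKO group. The groups did not overlap, and the log2 fold change of 1.40 ± 0.46 had an adjusted p of 0.133 in edgeR, 0.0393 when blocked by replicate number and 0.0582 in DESeq2 (range over all alternatives 0.0393 to 0.370). It was 1.23 without replicate 1 of the cKO group. Cd74 (gene 16149), the invariant chain that escorts class II, was at 2.45, 2.42 and 1.07 CPM against 8.23, 3.15 and 2.57 CPM. Its groups were separated by a narrow gap between replicate 1 of the controls and replicate 3 of the cKO group, and without replicate 1 of the latter the log2 fold change of 1.23 ± 0.55 was 0.54.

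The other class II chains and both class regulators did not pass the filter on low counts and were not tested. H2-Aa (gene 14960), the partner of H2-Ab1, was at 0.440, 0.485 and 0.253 CPM in the controls and at 2.02, 0.629 and 0.461 CPM in the cKO group. H2-Eb1 (gene 14969), a further β chain, was at 0.314, 0.424 and 0.316 CPM and 2.47, 0.881 and 0.396 CPM, respectively. Both were highest in replicate 1 of the cKO group, with replicate 2 above the controls and replicate 3 within their range. Ciita (gene 12265), the master activator of class II, was at 0.565, 0.485 and 0.505 CPM in the controls and 0.570, 0.629 and 0.989 CPM in the cKO group, with 8 to 15 counts per library. Nlrc5, the corresponding activator of class I, was at 0.314, 0.242 and 0.126 CPM and 1.58, 0.629 and 0.527 CPM, with 2 to 25 counts. Neither regulator overlapped between groups, although for Ciita replicate 1 of both groups rested on the same 9 counts. In a fit without the filter, 0 of the 16 antigen presentation genes and 0 of the 23 interferon-induced genes passed the criterion, beside 0.57% of all 18066 genes in it.

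Markers of the cells that carry class II, and of other cells that the captured tissue could hold, were set beside these values. Dendritic cell markers summed to 2.83 to 3.39 CPM in the controls and 4.42 to 10.4 CPM in the cKO group, with 6 of 9 under 1 CPM in every library. B cell markers summed to 0.758 to 1.82 CPM against 2.505 to 7.21 CPM. Markers of T and NK cells were at 0.242 to 0.884 CPM and 0.923 to 1.90 CPM, with 6 of the 7 listed in the table under 1 CPM in every library. Neutrophil markers had the widest gap, at 3.33 to 5.65 CPM in the controls and 30.5 to 77.5 CPM in the cKO group, and endothelial markers were at 305 to 387 CPM and 377 to 1029 CPM. Of 6 neutrophil markers tested, 5 passed the criterion in edgeR, beside 0.432% of all genes. For 2 of the 6, no control library exceeded the filter's cutoff. Median log2 fold changes were 3.43 for neutrophil, 1.46 for pan-leukocyte, 1.36 for macrophage and monocyte and 0.93 for endothelial markers. No list had a marker at 0 in all libraries, and the part of these cells in the antigen presentation values was not tested.

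**Figure D4:**
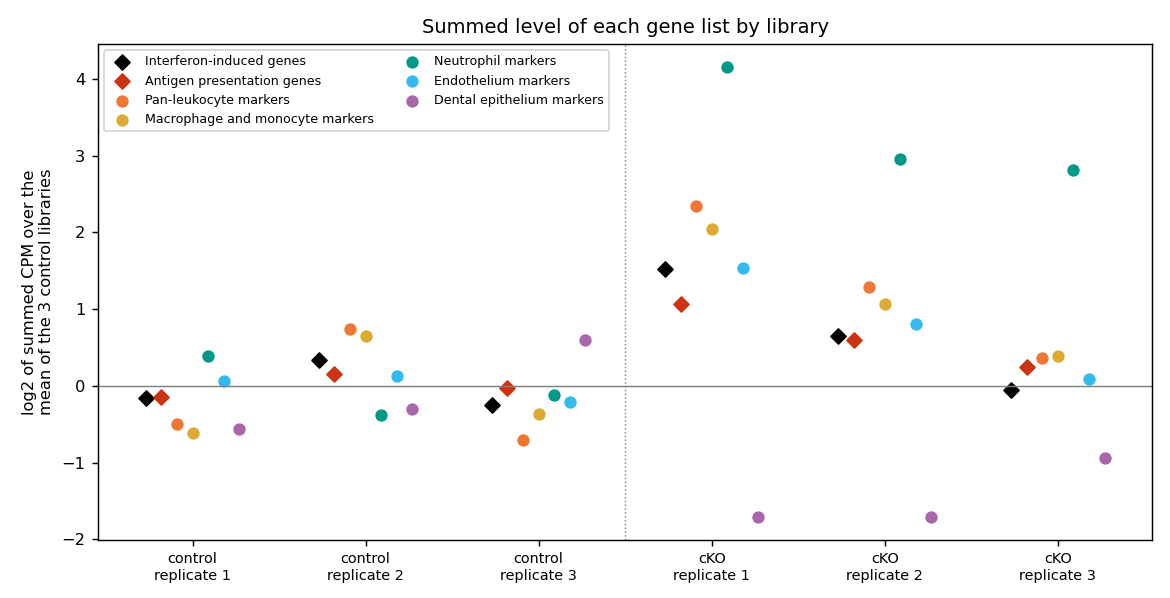
Summed CPM of both groups of members (diamonds) and of marker lists (circles) in each library, as the log2 of the sum over the mean of the 3 control libraries. Interferon-induced genes, leukocyte and macrophage markers are highest among the controls in replicate 2 and highest of all in replicate 1 of the cKO group.

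As sums, interferon-induced genes were at 83.8, 118 and 78.3 CPM in the control libraries and at 268, 147 and 89.4 CPM in the cKO libraries, where replicate 3 lay inside the control range. Antigen presentation genes summed to 182, 225 and 198 CPM and 424, 305 and 240.2 CPM, with every cKO library above the controls. This separation of the sums rested on B2m. In replicate 3 of the cKO group B2m was at 97.6 CPM, against 48.3 to 74.3 CPM in the controls. In that replicate H2-D1, H2-T23, Tapbp and H2-K1, the next highest antigen presentation genes in TPM, lay inside the control range. Libraries of the same number, which the labels do not establish as pairs, were also compared. Of the 23 interferon-induced genes, 22, 17 and 16 were higher in the cKO library of replicates 1, 2 and 3. Over all genes the shares were 44.5%, 52.0% and 50.7%. For the antigen presentation genes the numbers were 10, 9 and 6 of 11.

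The ligands and receptors of the pathway were read in the same fit. Of 19 interferon genes listed, 4 were in the table (Ifnab, Ifne, Ifnk and Ifnz), none passed the filter, and none had more than 6 counts in a library. Of 11 receptor, kinase and STAT genes, all tested, 0 passed the criterion in edgeR, and DESeq2 and the replicate block each placed 1 (Ifngr1) past it, beside 5.05% and 4.16% of all genes. Ifngr1, the ligand-binding chain of the interferon-γ receptor, was at 22.2, 35.6 and 20.1 CPM in the controls and 89.7, 86.5 and 37.4 CPM in the cKO group, without overlap. Its log2 fold change was 1.46 ± 0.37, with an adjusted p of 0.0871 in edgeR, 0.0193 when blocked and 0.00242 in DESeq2. Jak2, the kinase of that receptor, was at 67.2, 78.4 and 62.3 CPM against 119, 100.5 and 102 CPM, and Ifnar2, a chain of the type I receptor, was at 35.7, 41.4 and 39.5 CPM against 57.8, 52.4 and 60.0 CPM. Neither overlapped between groups, and their log2 fold changes of 0.63 ± 0.13 and 0.55 ± 0.12 were below the fold of the criterion, with edgeR adjusted p values of 0.0679 and 0.0696, and of 0.0349 and 0.0472 when blocked. Ifnar1, Jak1 and Tyk2 had log2 fold changes of 0.19, -0.11 and -0.33.

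Sensors of nucleic acid and their adaptors, which lead to interferon production, were represented by 15 listed genes, of which 13 were tested. None passed the criterion in edgeR, and DESeq2 and the replicate block each placed 1 (Sting1) past it, again beside 5.05% and 4.16% of all genes. Sting1, the adaptor of cytosolic DNA sensing, was at 4.46, 5.33 and 3.60 CPM in the control group and 14.9, 8.68 and 7.32 CPM in the cKO group, without overlap (log2 fold change 1.20 ± 0.33, adjusted p = 0.0959 in edgeR, 0.0489 when blocked and 0.0145 in DESeq2). The endosomal RNA receptor Tlr7 and the transcription factor Irf5 had log2 fold changes of 0.56 ± 0.16 and 1.02 ± 0.34, and the kinase Tbk1 one of 0.30 ± 0.11. Mavs, the mitochondrial adaptor of RNA sensing, was lower in every cKO library than in the controls, at 24.2, 28.2 and 37.4 CPM in the controls and 19.0, 10.9 and 22.8 CPM in the other group (adjusted p = 0.170).

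Of 13 genes that restrain the response, all were tested and 0 passed the criterion in edgeR, and DESeq2 placed 1 (Socs3) past it, beside 5.05% of all genes. Socs3, an inhibitor of cytokine receptors including that of interleukin-6, was at 24.4, 22.5 and 18.8 CPM in the controls and 138, 32.2 and 37.6 CPM in the cKO group. Replicate 1 again was far above the others, and the log2 fold change of 1.66 ± 0.55 was 0.69 without it (adjusted p in all libraries 0.135). Socs1, the chief inhibitor of interferon-γ signalling, was at 0.15 ± 0.31, and Samhd1, Trex1 and Adar, which limit or edit nucleic acid, were at 0.71, 0.45 and -0.02 on the log2 scale.

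Beyond the members, a longer list of 50 interferon-induced genes was read in the same fit, with 47 in the table and 36 tested. Their median log2 fold change was 1.12, close to that of the members, and 33 of the 36 were above 0, beside 49.5% of all genes. One of the 36, Gbp6, was under the filter's cutoff in every control library, and others, such as Iigp1, in some. All are part of these counts. In edgeR 0 passed the criterion, DESeq2 placed 11 past it and the replicate block 7, all higher, beside 5.05% and 4.16% of all genes. At an unadjusted p of at most 0.05, 18 were higher and 0 lower, where 13% of all genes were higher. Every cKO value lay above the controls for 14, beside 14.5% of all genes. Without replicate 1 of the cKO group the median was 0.64.

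Ifitm genes, which encode membrane proteins that block viral entry and are also expressed in many embryonic tissues, had the lowest p values of that list. Ifitm2 was at 151, 149 and 136 CPM in the control libraries and 259.6, 226 and 265 CPM in the cKO libraries, a difference with an adjusted p of 0.0498 and a log2 fold change of 0.78 ± 0.11, under the fold of the criterion. Ifitm1 was at 9.73, 13.4 and 6.19 CPM against 36.01, 24.04 and 43.9 CPM, with its highest value in replicate 3 (log2 fold change 1.82 ± 0.33, adjusted p = 0.0637 in edgeR and 0.0411 with the block). Ifitm3 was at 53.7, 40.1 and 29.2 CPM against 156, 79.7 and 98.4 CPM (log2 fold change 1.44 ± 0.31, adjusted p = 0.0692 and 0.00952). None of the 3 overlapped between groups. Iigp1, a GTPase induced by interferon-γ, had a log2 fold change of 3.10 ± 0.79, which was 1.94 without replicate 1 of the cKO group.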

How the data were processed

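RNA-seq was measured in 3 control (Kdf1 fl/fl) and 3 cKO (K14-Cre;Kdf1 fl/fl) libraries. The authors deposited one table with estimated counts of reads per gene and library (10.9% to 11.5% of values in a library not whole), and these were rounded to whole numbers. The deposited TPM values, scaled by the authors for transcript length to an equal total per library, were used for levels between genes and for ratios. The deposited FPKM values and the authors' group means were not used. The submitters' processing notes name BWA 0.7.12, Picard 2.6.0 and StringTie without their roles, and the genome build, annotation, strandedness and test of the study are not given in the sources used here. Genes were matched by the symbols of the table.

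With edgeR 4.0.16 in R 4.3.3, filterByExpr kept 14131 of 18152 genes, libraries were scaled by TMM (factors 0.950 to 1.03) and groups compared by robust quasi-likelihood fits with Benjamini-Hochberg adjustment over all genes tested. CPM values use the TMM-scaled library sizes, and limits at a count of 0 cover counting error only, since PCR copies are not independent molecules. No tested member lay under the filter's cutoff in all control libraries, and 18 of 23 and 10 of 11 exceeded it in every library. Ifit1, Ifit3 and Gbp2 exceeded it in replicate 2 alone of the controls, so the filter kept them only because of the cKO libraries. Oas1a, Usp18 and Psmb8 also fell under it in some libraries. With at least 10 counts in every library, the median log2 fold change of the interferon-induced genes was 0.92. DESeq2 1.42.0 and limma 3.58.1 on log2 TPM were alternatives, beside other scalings and filters, the replicate number as a block, and the omission of each library. The procedures were tested on simulated counts.

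Libraries of one group correlated at 0.956 to 0.984 in log2 CPM and differed beyond sampling noise, so none was a duplicate. Across genes, same-numbered libraries deviated together from the means of their groups (r = 0.132, 0.353 and 0.520). Libraries with different numbers had r between -0.436 and 0.144, and replicate 1 of the cKO group came closer to replicate 2 of the controls (0.144) than to its own number. Every same-numbered r exceeded 0.1, but so did the 0.144 between different numbers, so these correlations cannot establish pairs. The labels do not say what a number marks. The main fit therefore took the libraries as unpaired, and the number served as a block in an alternative fit only. The members and all lists of genes were chosen with earlier results of these data known. Full values were given for members with an unadjusted p of at most 0.05, for the 3 members of each group with the highest TPM and for the class II genes, and for up to 5 genes of each further list with the lowest p. Other genes named were chosen after their values were seen.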

Additional observations from a re-analysis of the deposited data

How the results depend on the processing

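Over all genes, 61 passed the criterion, and the number was 980 in DESeq2, 860 with the replicate block, 31 in limma on log2(TPM + 1), 7 with the size factors of DESeq2 in edgeR, 9 with scaling by library size alone, 103 without the filter, 6 with at least 10 counts in every library, 1372 at an unadjusted p with the fold, and 1 to 465 when a library was left out, with 465 without replicate 3 of the cKO group. For interferon-induced genes the number was 2 in DESeq2, 2 with the replicate block, 7 at the unadjusted p and 0 to 2 when a library was left out, and for antigen presentation genes it was 1, 2, 4 and 0 to 1, the highest again without that library. The block changed no call of another member. The median log2 fold change ranged from 0.30 to 1.49 for interferon-induced genes when a library was left out, the lowest without replicate 1 of the cKO group and the highest without replicate 3. Without replicate 1, the log2 fold change took the other sign for Irf8 (-0.19, up to 0.72 without another library), Ifi35 (-0.19, up to 0.59), Ifih1 (-0.11, up to 0.76) and Psmb6 (0.033, down to -0.14), and Isg20 was at 0.051 without replicate 3 of the control group and down to -0.69 without another. The other 30 of the 34 tested members kept their sign in every alternative run. Low counts limit Ifit1, Ifit3, Gbp2, Oas1a, Usp18, Psmb8, Psmb9, Nlrc5, Ciita, H2-Aa and H2-Eb1. The causes were not tested.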

Other observations

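Further genes of antigen presentation, outside the 41, were read from a list of 33 of which 31 were in the table and 22 tested. The lowest p values belonged to Mr1, Fcgrt, Ifi30, H2-Q4 and Lgmn. Mr1, a class I-like molecule that displays vitamin B metabolites, was at 30.6, 25.6 and 23.8 CPM in the control libraries and 51.0, 45.2 and 44.6 CPM in the cKO libraries, with close replicates and no overlap (log2 fold change 0.82 ± 0.14, edgeR adjusted p = 0.0582, and 0.0162 with the replicate block). Fcgrt, the neonatal Fc receptor that also pairs with B2m, was at 14.2, 32.5 and 17.1 CPM against 88.7, 60.1 and 35.6 CPM (log2 fold change 1.53 ± 0.42, adjusted p = 0.0955 in edgeR and 0.00405 in DESeq2). H2-Q4, a nonclassical class I gene, had a log2 fold change of 0.59 ± 0.17 and an adjusted p of 0.106. The endosomal enzymes Ifi30 (GILT), a thiol reductase, and Lgmn, an asparaginyl protease, had log2 fold changes of 0.49 ± 0.14 and 0.83 ± 0.26, with adjusted p values of 0.0992 and 0.120.

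The chaperones that fold class I heavy chains in the endoplasmic reticulum had lower means in the cKO group, while B2m had a higher one. Calr was at 1357, 1328 and 2226 CPM in the controls and 773, 1244 and 869 CPM in the cKO group, and the log2 fold changes of Calr, Canx and Pdia3 were -0.77 ± 0.27, -0.39 ± 0.19 and -0.37 ± 0.22, with edgeR adjusted p values of 0.150, 0.254 and 0.344. These chaperones serve all secretory proteins. Among the proteasome genes, Psme3, the nuclear activator that interferon does not induce, was at 184, 168 and 173 CPM in the controls and 125, 131 and 129.9 CPM in the other group (log2 fold change -0.45 ± 0.10, adjusted p = 0.0714). The interferon-induced activator genes Psme1 and Psme2 had log2 fold changes of 0.21 ± 0.12 and 0.07 ± 0.13.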
